A study of Mus musculus with 15 samples.

Results

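Genes known for their dependence on androgen in the mouse kidney were followed across 4 treatments, as 8 of 23866 gene rows of a kidney count table. The genes are Kap, Cyp4a12a, Cyp4b1, Cyp7b1, Slco1a1, Acsm3, Odc1 and Gusb. They were chosen by symbol, all 8 had a row, and all 8 passed the filter on low counts. Slc34a1, a sodium-phosphate cotransporter, and Slc22a6, an organic anion transporter, were set beside them as genes of the proximal tubule that were not chosen for androgen dependence. Whether Slc34a1 or Slc22a6 itself responds to androgen was not tested.

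All mice were male C57BL/6, and RNA came from frozen whole kidneys. The CCl4+EtOH group (3 libraries) had 6 weeks of intraperitoneal CCl4, carbon tetrachloride, a solvent toxic to liver and kidney, and then 4 weeks of ethanol. Titles in that group repeat CCl4 beside ethanol, so whether CCl4 went on during the ethanol weeks cannot be told from the labels. The EtOH group (4 libraries) had 6 weeks of olive oil before 4 weeks of ethanol. The CCl4 group (4 libraries) joined 2 schedules, 6 weeks of CCl4 followed by 4 weeks at a reduced dose (10W, replicates 3 and 4) and 6 weeks of CCl4 alone (6W, replicates 1 and 2). The olive oil group (3 libraries) had the vehicle for 6 weeks with no further course, and 1 more mouse labelled for it was not analysed here. Set against olive oil, ethanol and the additional 4 weeks cannot be told apart.

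In the male mouse kidney, testosterone acts on proximal tubule cells, and a set of tubule genes is expressed at a higher level in males than in females and falls after castration. Kap, Odc1 and Gusb are long-known genes of that set, and enzymes and transporters for lipids, steroids and organic anions make up much of the rest. Some genes of the set also respond to growth hormone, which signals through Stat5b. No hormone level is among the data used here.

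Library totals ran from 16.4 to 23.5 M counts. Values are CPM, the usual unit of counts relative to library size, on libraries scaled by the trimmed mean of M-values (TMM), and CPM is compared only within a gene, since it takes no account of transcript length. All 24 proximal tubule markers were detected in every library. Their summed level was 14127 and 13889 CPM in CCl4+EtOH replicates 1 and 2 and 29961 CPM in replicate 3, against 31118 to 37954 CPM in olive oil libraries. EtOH replicates 1 to 3 also held adrenal cortex transcripts, with summed levels of 790.5, 723 and 1137 CPM, against 9.19 CPM in EtOH replicate 4 and 6.77 to 8.35 CPM in olive oil libraries. Macrophage markers summed to 548, 621 and 419 CPM in CCl4+EtOH replicates 1 to 3, against 190.9 to 271.03 CPM in olive oil libraries. Adipocyte markers summed to 181, 209 and 673 CPM in CCl4+EtOH replicates 1 to 3, against 163 to 344 CPM in olive oil libraries. They were higher still in EtOH replicate 1 (838 CPM) and CCl4 replicate 3 (691 CPM). Collecting duct markers summed to 279, 385 and 546 CPM in CCl4+EtOH replicates 1 to 3, against 506 to 579.6 CPM in olive oil libraries, and loop of Henle and distal tubule markers to 5511, 6656 and 8411 CPM, against 8407 to 10157 CPM. The part of these shifts in the results below was not tested beyond the scalings to tubule genes. In whole kidney RNA, fewer cells of a type and less RNA per cell cannot be told apart.

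Of the 8 genes, 7 were lower in CCl4+EtOH kidneys than in olive oil kidneys, by a log2 fold change of -1.72 to -4.52, and Gusb did not pass the test. The test was edgeR's quasi-likelihood test with Benjamini-Hochberg adjustment over all 16105 genes tested, at an adjusted p of 0.05. In the same comparison 16.6% of all genes tested were called lower. The median log2 fold change was -2.78 over the 8 genes, against 0.02 over all genes tested. In all 8 genes every CCl4+EtOH library lay below every olive oil library, as it did in 20.8% of all genes. The same olive oil libraries serve each comparison with olive oil below. Of these, olive oil replicate 3 was the highest for 7 of the 8 genes. The median of the 8, as a percent of the olive oil mean, was 126% in that library, against 81.2% and 82.8% in replicates 1 and 2.

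Kap, the kidney androgen-regulated protein, is an abundant transcript of male proximal tubule. It had 4873, 1969 and 3269.7 CPM in CCl4+EtOH libraries, 9515, 12842, 9217 and 11985 CPM in EtOH libraries, 21747, 20484, 29404 and 30439.8 CPM in CCl4 libraries, and 26178, 25620.0 and 31039.6 CPM in olive oil libraries. The CCl4+EtOH, EtOH and CCl4 groups formed 3 steps that did not overlap one another, and the CCl4 and olive oil libraries overlapped. The log2 fold change over olive oil was -3.03 ± 0.31 in CCl4+EtOH (SE, 3 against 3 libraries, edgeR adjusted p = 4.5e-05) and -1.34 ± 0.27 in EtOH (4 against 3, adjusted p = 0.0557), so the EtOH difference did not pass. Kap took 0.233% to 0.548% of all counts in CCl4+EtOH libraries, where the transcript remained well detected.

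Cyp4a12a encodes a cytochrome P450 that hydroxylates arachidonic acid. It had 15.2, 7.95 and 7.38 CPM in CCl4+EtOH libraries, 68.8, 58.7, 44.1 and 66.9 CPM in EtOH libraries, 76.3, 113, 183 and 195 CPM in CCl4 libraries, and 174, 229 and 302 CPM in olive oil libraries. It showed the same 3 steps, with the CCl4 6W libraries below and the 10W libraries inside the olive oil range. Cyp4a12a fell furthest of the 8 genes in CCl4+EtOH, by 4.52 ± 0.41 on the log2 scale relative to olive oil (SE, edgeR adjusted p = 2.9e-05). It was also the only one of the 8 called in EtOH relative to olive oil, at -1.98 ± 0.32 (adjusted p = 0.0288). Cyp4a12b, whose transcript matched that of Cyp4a12a at 97.1% of aligned positions in the GENCODE M21 annotation, may share reads with it, so the split of counts between them is uncertain.

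Cyp7b1, an oxysterol hydroxylase that also acts on androgen metabolites, had 29.6, 12.5 and 8.98 CPM in CCl4+EtOH libraries, 60.3, 114, 65.6 and 106 CPM in EtOH libraries, 155, 129.8, 210.1 and 169 CPM in CCl4 libraries, and 396, 203 and 282 CPM in olive oil libraries. Each of the CCl4+EtOH, EtOH and CCl4 groups was separate from the next. Cyp7b1 fell by 4.10 ± 0.44 on the log2 scale in CCl4+EtOH relative to olive oil (SE, edgeR adjusted p = 9.0e-05). In EtOH its log2 fold change of -1.77 ± 0.36 did not pass (adjusted p = 0.0658), although the groups did not overlap.

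Cyp4b1, a P450 of fatty acid and foreign-compound oxidation, differed in pattern. It had 779.8, 845 and 1619 CPM in CCl4+EtOH libraries, 3097, 3492, 2399.8 and 4146 CPM in EtOH libraries, 4106, 4078, 4447 and 4824 CPM in CCl4 libraries, and 3095, 4527 and 5324 CPM in olive oil libraries. It was low in CCl4+EtOH alone, since the EtOH and olive oil libraries overlapped. The log2 fold change over olive oil was -2.0 ± 0.29 in CCl4+EtOH (SE, edgeR adjusted p = 0.00036) and -0.39 ± 0.26 in EtOH (adjusted p = 0.681).

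Slco1a1, an organic anion transporter, had 71.5, 16.9 and 9.84 CPM in CCl4+EtOH libraries, 124, 182, 112 and 229 CPM in EtOH libraries, 221, 265, 632 and 741 CPM in CCl4 libraries, and 201, 303 and 1101 CPM in olive oil libraries. Olive oil replicate 3 stood far above the other olive oil libraries for this gene. Slco1a1 fell by 4.03 ± 0.86 on the log2 scale in CCl4+EtOH relative to olive oil (SE, edgeR adjusted p = 0.0036). Its log2 fold change was -2.95 without olive oil replicate 3 and -5.31 without CCl4+EtOH replicate 1. The EtOH value of -1.73 ± 0.71 did not pass (adjusted p = 0.40).

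Acsm3, a medium-chain acyl-CoA synthetase of mitochondria, had 398, 208 and 88.5 CPM in CCl4+EtOH libraries, 359.6, 551, 281 and 522 CPM in EtOH libraries, 804, 866, 1637 and 1937 CPM in CCl4 libraries, and 1209, 1010.4 and 1799.7 CPM in olive oil libraries. The EtOH libraries lay below every CCl4 and olive oil library, and CCl4+EtOH replicate 1 lay within the EtOH range. Acsm3 fell by 2.53 ± 0.51 on the log2 scale in CCl4+EtOH relative to olive oil (SE, edgeR adjusted p = 0.0024). In EtOH it stood at -1.65 ± 0.45 relative to olive oil (adjusted p = 0.151).

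Odc1, ornithine decarboxylase, starts polyamine synthesis. It had 164, 128 and 209 CPM in CCl4+EtOH libraries, 339, 355, 258 and 412 CPM in EtOH libraries, 172, 255, 505 and 599.8 CPM in CCl4 libraries, and 342, 337 and 973 CPM in olive oil libraries. The EtOH libraries lay around the lower olive oil libraries, and olive oil replicate 3 stood apart. Odc1 fell by 1.72 ± 0.48 on the log2 scale in CCl4+EtOH relative to olive oil (SE, edgeR adjusted p = 0.0142). That call was lost without olive oil replicate 3 (-1.03, adjusted p = 0.0851), without CCl4+EtOH replicate 1 (-1.70, adjusted p = 0.0555) and without CCl4+EtOH replicate 2 (-1.55, adjusted p = 0.0675).

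Gusb, the lysosomal enzyme beta-glucuronidase, followed another order. It had 50.9, 50.3 and 47.6 CPM in CCl4+EtOH libraries, 40.9, 36.5, 36.6 and 32.5 CPM in EtOH libraries, 40.0, 44.1, 56.4 and 66.7 CPM in CCl4 libraries, and 56.2, 57.4 and 77.2 CPM in olive oil libraries. The lowest group was EtOH, and the CCl4+EtOH libraries lay between the EtOH and olive oil libraries without overlapping either. The log2 fold change over olive oil was -0.36 ± 0.17 in CCl4+EtOH (SE, edgeR adjusted p = 0.111) and -0.79 ± 0.16 in EtOH (adjusted p = 0.0557), and neither passed.

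**Figure D1:**
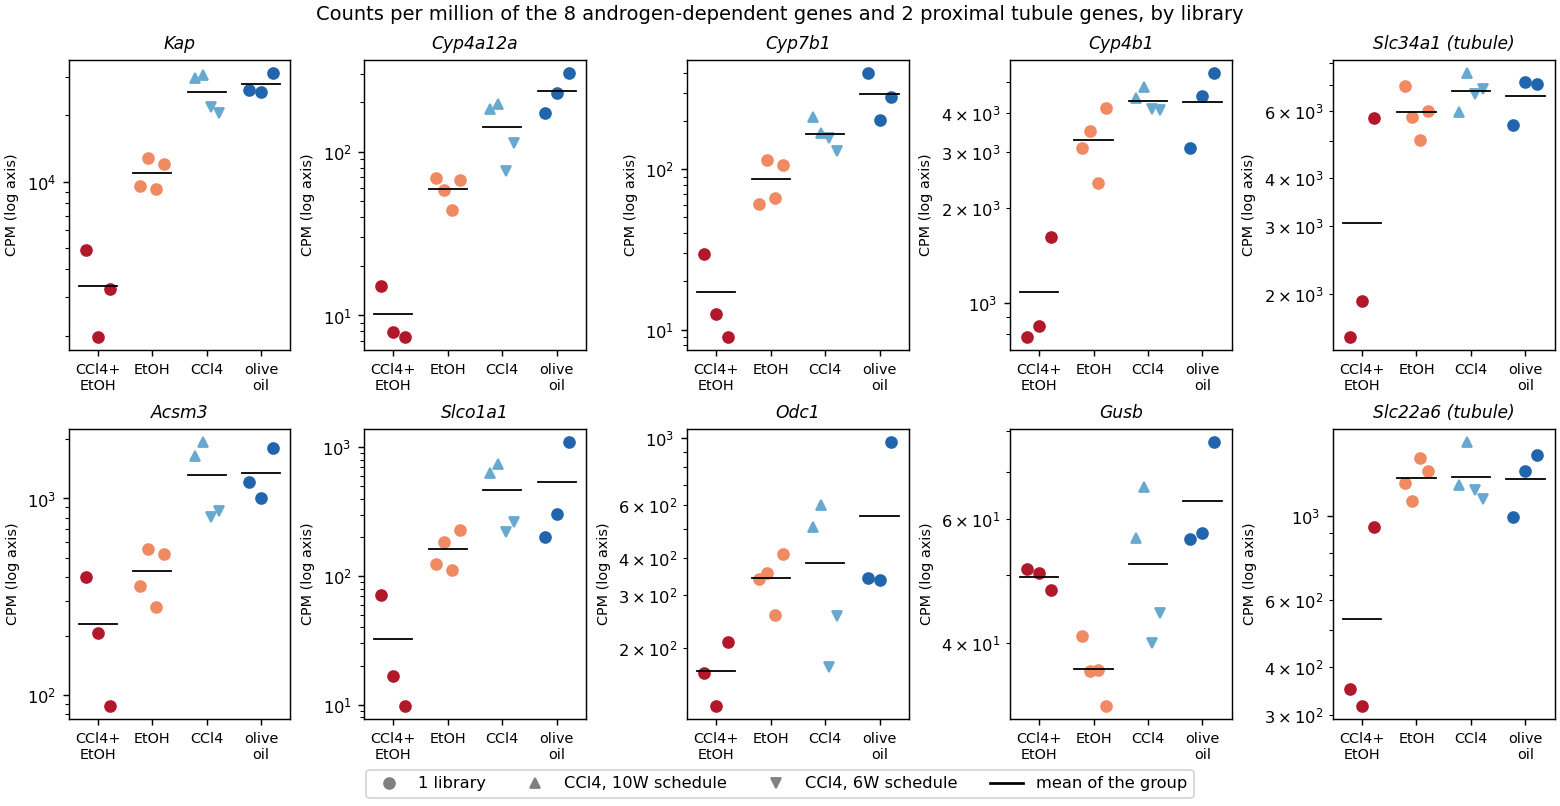
Each panel plots CPM on a log axis for 1 gene, 1 point per library, with the group mean as a line and groups ordered CCl4+EtOH, EtOH, CCl4 and olive oil. Kap, Cyp4a12a and Cyp7b1 descend in steps to the CCl4+EtOH libraries, Gusb is lowest in EtOH, and in the CCl4 group the 10W libraries (upward triangles) lie above the 6W libraries (downward triangles) for all 8 genes.

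With ethanol after olive oil, 1 of the 8 genes, Cyp4a12a, was called lower than in olive oil, where 0.0869% of all genes tested were called lower. The median log2 fold change of the 8 was -1.49, against 0.00 over all genes. Kap, Cyp4a12a, Cyp7b1, Acsm3 and Gusb, 5 of the 8, lay lower in every EtOH library than in every olive oil library, against 6.69% of all genes. Slc34a1 (-0.14 ± 0.34, adjusted p = 0.948) and Slc22a6 (0.01 ± 0.30, adjusted p = 0.997) overlapped between the groups. The Cyp4a12a call was lost when EtOH replicate 1, 2 or 3 or olive oil replicate 2 or 3 was left out, with adjusted p between 0.0621 and 0.126. DESeq2 called 5 of the 8 lower, namely Kap, Cyp4a12a, Cyp7b1, Acsm3 and Gusb, against 0.998% of all genes. Without CCl4+EtOH replicate 3, which is in neither group but in the shared fit, edgeR called 4, against 0.598% of all genes.

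Adrenal transcripts moved with the EtOH group, and EtOH replicate 4 was at a summed level near that of olive oil. That library had 43.4% of the olive oil mean for Kap, 28.5% for Cyp4a12a, 36.0% for Cyp7b1, 39.0% for Acsm3 and 51.1% for Gusb. For Kap, Cyp4a12a, Cyp7b1 and Acsm3 these values lay within the range of EtOH replicates 1 to 3, and for Gusb below it. Cyp4b1 (4146 CPM), Slco1a1 (229 CPM) and Odc1 (412 CPM) were higher in EtOH replicate 4 than in EtOH replicates 1 to 3. With only EtOH replicate 4 kept, Cyp4a12a stood at -1.80 ± 0.58 relative to olive oil and no longer passed (adjusted p = 0.947).

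Set against EtOH, CCl4+EtOH kidneys were lower in 5 of the 8 genes, against 16.2% of all genes, and higher in Gusb, against 18.1%. The log2 fold change over EtOH was -1.69 ± 0.28 for Kap (edgeR adjusted p = 0.00084), -2.55 ± 0.37 for Cyp4a12a, -2.34 ± 0.40 for Cyp7b1, -1.60 ± 0.27 for Cyp4b1 and -2.30 ± 0.77 for Slco1a1 (adjusted p = 0.0358). Acsm3 (-0.89 ± 0.46, adjusted p = 0.150) and Odc1 (-1.03 ± 0.45, adjusted p = 0.0922) did not pass. Gusb was higher in CCl4+EtOH by 0.44 ± 0.16 (adjusted p = 0.0459). The Gusb call was lost in 9 of 14 fits that left out 1 library, and the Slco1a1 call without CCl4+EtOH replicate 2 or 3 or EtOH replicate 2 or 4. With every library scaled to equal Slc34a1, Cyp4a12a (-0.98 ± 0.37, edgeR adjusted p = 0.0117) stayed lower and Gusb (1.85 ± 0.37) higher. Kap (-0.23 ± 0.29), Cyp4b1 (-0.44 ± 0.31), Cyp7b1 (-0.71 ± 0.37) and Slco1a1 (-0.54 ± 0.95) then did not pass. Acsm3 and Odc1 turned above 0 there and did not pass either.

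CCl4 alone gave no call among the 8 genes relative to olive oil by edgeR. The share of all genes called was 0%. Before adjustment 640 of 16105 genes fell under 0.05, less than the share of 0.05 that would fall there with no change in any gene. DESeq2 called 1 gene, none of the 8. Among these 640 were Cyp4a12a and Cyp7b1, both lower on average in CCl4, at raw edgeR quasi-likelihood p of 0.0404 and 0.0381. All 8 genes overlapped between the CCl4 and olive oil libraries.

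Within the CCl4 group, every one of the 8 genes was higher in both 10W libraries than in both 6W libraries, as were 24.2% of all genes. The CPM of Odc1 was 505 and 599.8 in 10W, against 172 and 255 in 6W. The CPM of Slco1a1 was 632 and 741 in 10W, against 221 and 265 in 6W, and that of Acsm3 was 1637 and 1937 in 10W, against 804 and 866 in 6W. With 2 libraries each, edgeR's fit of 5 groups called 0% of all genes, and 1096 genes had a raw p under 0.05. DESeq2 called none of the 8. A fit of the 4 CCl4 libraries alone called 4 of the 8 higher in 10W, namely Slco1a1, Acsm3, Odc1 and Gusb, against 1.07% of all genes. Duration and dose differed together between the schedules and cannot be told apart. CCl4 replicate 3, of the 10W schedule, had a summed adrenal cortex level of 26.9 CPM, the highest outside the EtOH group.

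The 10W schedule, like EtOH, ran for another 4 weeks, which olive oil lacked, so EtOH was set against it. The 10W mice had CCl4 and the EtOH mice did not, so ethanol and the lack of CCl4 cannot be told apart there. All 8 genes were lower in every EtOH library than in both 10W libraries, against 13.5% of all genes. Cyp4a12a (-1.67 ± 0.28) and Gusb (-0.75 ± 0.13) were called lower, each at an edgeR adjusted p of 0.0335, where 0.243% of all genes were called lower. Each of those calls was lost in 7 or more of 14 fits without 1 library. CCl4+EtOH against 10W gave 7 of the 8 lower, against 11% of all genes, with Kap at -3.15 ± 0.32 and Gusb not past the threshold. Against the whole CCl4 group, CCl4+EtOH was lower in 6 of the 8, against 16.2%, and EtOH was lower in Kap alone, against 0.248%, a call lost in 11 of 14 fits without 1 library.

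The fall in CCl4+EtOH was next set against that of the proximal tubule genes. Slc34a1 had 1544, 1916 and 5747 CPM in CCl4+EtOH libraries, against 5509.9, 7123 and 7056 CPM in olive oil libraries, a log2 fold change of -1.10 ± 0.37 (SE, edgeR adjusted p = 0.0328). Slc22a6 had 350.4, 317 and 935 CPM in CCl4+EtOH libraries, against 993, 1312 and 1446 CPM in olive oil libraries, a log2 fold change of -1.23 ± 0.33 (adjusted p = 0.0112). Both were low in CCl4+EtOH replicates 1 and 2, while in replicate 3 Slc34a1 was inside and Slc22a6 just under the olive oil range. The Slc34a1 call was lost without CCl4+EtOH replicate 1 or 2 or olive oil replicate 2 or 3, with adjusted p between 0.0814 and 0.131, and the Slc22a6 call without CCl4+EtOH replicate 1 (adjusted p = 0.0515).

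In CCl4+EtOH replicate 3, 7 of the 8 genes, all but Gusb, stood further below olive oil than the tubule genes did. In that library Slc34a1 stood at 87.6% and Slc22a6 at 74.8% of the olive oil mean. In the same library Kap stood at 11.8%, Cyp4a12a at 3.15%, Cyp7b1 at 3.06%, Slco1a1 at 1.84% and Acsm3 at 6.60%. Cyp4a12a, Cyp7b1, Slco1a1 and Acsm3 were lower there than in replicates 1 and 2, whose tubule genes were lower, while Cyp4b1 (37.5%) and Odc1 (37.9%) were higher. Gusb stood at 74.8% there, level with Slc22a6. The median of the 8 genes relative to Slc34a1, as a percent of olive oil, was 75.9% in replicate 1, 38.6% in replicate 2 and 10.4% in replicate 3. With replicate 3 as the only CCl4+EtOH library, Kap was at -3.08 ± 0.30 (edgeR adjusted p = 0.00024), Cyp7b1 at -5.03 ± 0.61 (adjusted p = 0.0025) and Cyp4a12a at -4.99 ± 0.70 (adjusted p = 0.0049) relative to olive oil, while Slc34a1 was at -0.19 ± 0.20 (adjusted p = 0.633). That lone library was assumed to vary like the other groups.

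**Figure D2:**
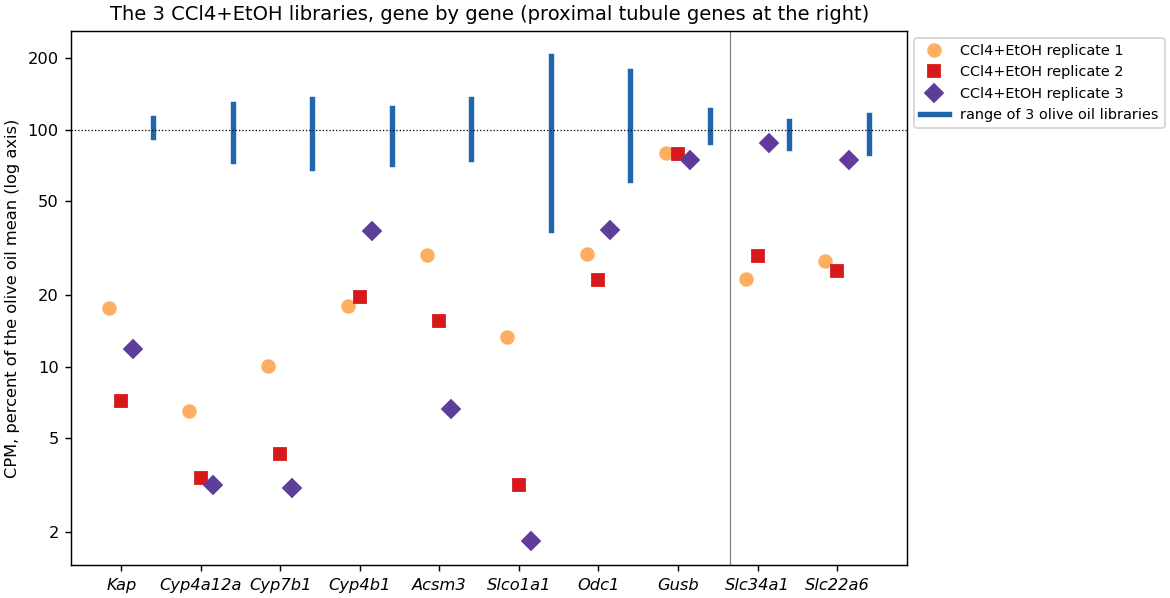
Each point is 1 CCl4+EtOH library, as a percent of the olive oil mean of that gene on a log axis, and the bars at the right of each gene span the 3 olive oil libraries. Replicate 3 (diamonds) is at 87.6% for Slc34a1 and 74.8% for Slc22a6 but at 1.84% to 11.8% for Kap, Cyp4a12a, Cyp7b1, Acsm3 and Slco1a1.

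Scaling every library to equal Slc34a1 tests each gene against that tubule gene directly. In CCl4+EtOH relative to olive oil, Kap (-1.42 ± 0.32, edgeR adjusted p = 3.4e-05), Cyp4a12a (-2.81 ± 0.42) and Cyp7b1 (-2.37 ± 0.41) were then still called lower, against 0.491% of all genes. Slco1a1 (-2.05 ± 1.05), Acsm3 (-0.69 ± 0.52), Cyp4b1 (-0.67 ± 0.33) and Odc1 (-0.24 ± 0.36) did not pass, and Gusb was called higher (1.21 ± 0.40, adjusted p = 0.0039), as were 84.9% of all genes. This scaling moved the median of all genes to 1.55 on the log2 scale, and Gusb lay below that median. Kap, Cyp4a12a, Cyp4b1 and Cyp7b1 were called lower with libraries scaled to Slc22a6, against 0.577% of all genes. The same 4 and Slco1a1 (-2.75 ± 0.98, edgeR adjusted p = 0.0247) were called lower with libraries scaled to the 24 tubule markers, against 1.37%. These markers include Slc34a1, Slc22a6 and Slc7a13, a gene with a male bias in kidney. That scaling is therefore not independent of the single-gene scalings. In EtOH relative to olive oil, the Slc34a1 scaling called 3 lower, Kap (-1.20 ± 0.29), Cyp4a12a (-1.83 ± 0.36) and Cyp7b1 (-1.66 ± 0.36), against 0.174% of all genes.

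**Figure D3:**
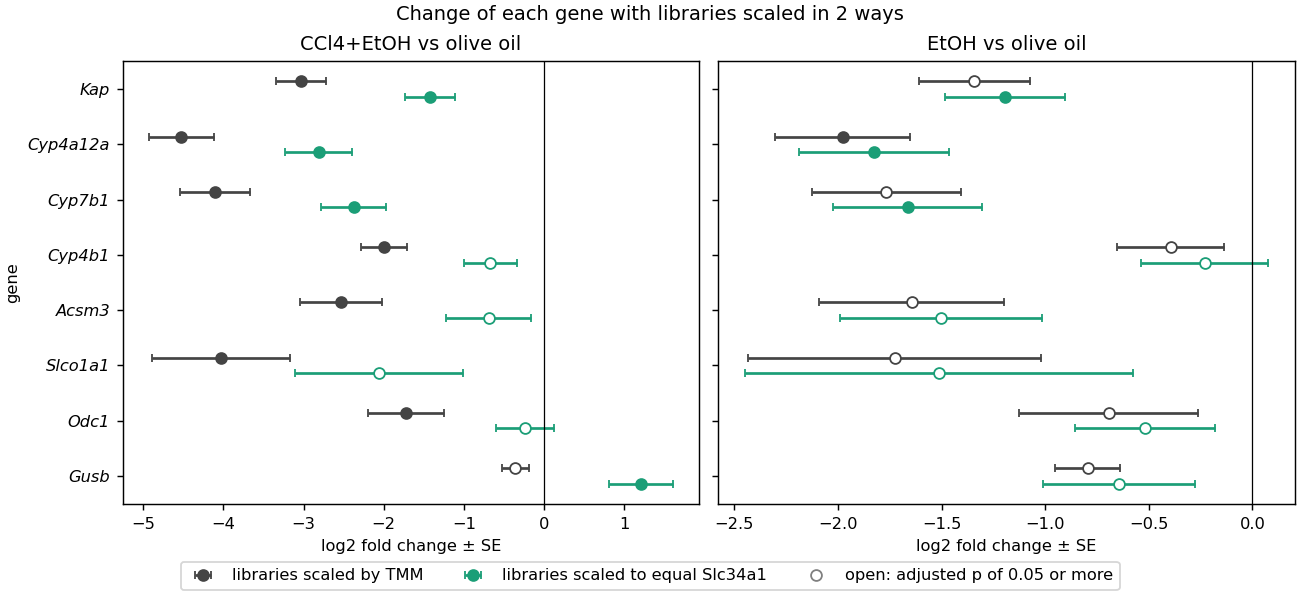
Points are log2 fold changes with SE bars for each gene in CCl4+EtOH (left) and EtOH (right) relative to olive oil, with libraries scaled by TMM or to equal Slc34a1, and filled points passed the threshold. In the left panel Kap, Cyp4a12a and Cyp7b1 stay filled below 0 in both scalings and Gusb changes sign, while in the right panel the values with the 2 scalings lie close together.

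An interaction tested whether CCl4 lowered the 8 genes more where ethanol followed. The log2 fold change of CCl4+EtOH over EtOH minus that of CCl4 over olive oil was past the threshold for Kap (-1.58 ± 0.39, edgeR adjusted p = 0.0259), Cyp4a12a (-1.82 ± 0.48, adjusted p = 0.0360) and Cyp4b1 (-1.62 ± 0.38, adjusted p = 0.0222). These were 3 of the 8 genes, against 3.63% of all genes called lower by the interaction. None of the 3 passed once 1 library was kept in a group. With only EtOH replicate 4 the differences were -1.73 ± 0.53, -2.0 ± 0.61 and -1.97 ± 0.47, and with only CCl4+EtOH replicate 3 they were -1.62 ± 0.31, -2.28 ± 0.67 and -1.04 ± 0.35, for Kap, Cyp4a12a and Cyp4b1 in that order. Scaled to Slc34a1, the interaction was -0.07 ± 0.41 for Kap, -0.24 ± 0.51 for Cyp4a12a and -0.44 ± 0.44 for Cyp4b1, none of which passed. Scaled to the 24 tubule markers, it was past the threshold for Cyp4b1 (-0.63 ± 0.25, adjusted p = 0.0307).

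Promoter sequences are shown for Kap, whose EtOH libraries lay below the olive oil libraries, for Cyp4b1, whose EtOH libraries overlapped them, and for Slc34a1 as the tubule gene. They are RefSeq sequences of build GRCm38.p6 from 250 bases before to 50 bases after the start of the gene, on the strand of the gene, and 6 of the 8 genes matched an entry, all but Cyp4a12a and Cyp7b1. Capitals mark TGTTCT or its complement AGAACA, the hexamer at the core of the androgen response element, and TTCNNNGAA, the core bound by STAT5, with N for any base. Both strands were searched.
Kap, chr6:133853618-133853917, minus strand: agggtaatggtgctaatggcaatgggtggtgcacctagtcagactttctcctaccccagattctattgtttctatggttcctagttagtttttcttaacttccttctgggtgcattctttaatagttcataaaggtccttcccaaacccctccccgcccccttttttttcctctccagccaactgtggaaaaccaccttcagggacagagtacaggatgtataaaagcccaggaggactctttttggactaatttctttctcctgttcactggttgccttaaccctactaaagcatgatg
Cyp4b1, chr4:115647672-115647971, minus strand: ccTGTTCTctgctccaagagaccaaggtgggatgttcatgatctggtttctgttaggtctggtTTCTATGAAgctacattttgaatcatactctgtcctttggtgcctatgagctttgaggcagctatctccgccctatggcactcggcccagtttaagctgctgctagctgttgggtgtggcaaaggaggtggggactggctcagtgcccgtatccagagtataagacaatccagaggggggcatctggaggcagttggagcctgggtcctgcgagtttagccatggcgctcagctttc
Slc34a1, chr13:55399398-55399697, plus strand: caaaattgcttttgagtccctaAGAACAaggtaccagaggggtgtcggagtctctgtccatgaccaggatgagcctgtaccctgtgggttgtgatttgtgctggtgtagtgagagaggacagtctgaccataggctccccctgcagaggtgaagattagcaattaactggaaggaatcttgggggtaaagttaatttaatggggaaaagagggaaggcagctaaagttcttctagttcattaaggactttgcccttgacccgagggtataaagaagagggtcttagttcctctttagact

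Of the 6 genes with an entry, Cyp4b1 held the hexamer, at -248 from its start, and a STAT5 core at -187. The other 5 held neither in this window. The hexamer occurred in 18.9% and the STAT5 core in 8.33% of 32544 promoters of the same length, and Slc34a1 held the hexamer at -228. The full palindrome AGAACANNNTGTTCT was in 3 of all promoters and in none of the 6. A match of letters is a description of the window and not a bound site.

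Other genes with a male bias in kidney were lower alongside. Of 10 such genes, 9 fell in CCl4+EtOH relative to olive oil, against 16.6% of all genes, with a median log2 fold change of -2.03. In the same comparison Slc34a1 was at -1.10 ± 0.37 and Slc22a6 at -1.23 ± 0.33. A fall of the 10 genes apart from that of the tubule genes was not tested, and Slc7a13 is also among the tubule markers. Slc7a13, an amino acid transporter, fell by 2.89 ± 0.45 (edgeR adjusted p = 0.00061), and Cyp2e1, an ethanol-oxidizing P450, fell by 2.19 ± 0.27 (adjusted p = 0.00014). Cyp4a12b, the near copy of Cyp4a12a, fell by 2.81 ± 0.35. Of 5 female-biased genes, 3 rose, against 18.9% of all genes, namely Abcc3, an organic anion efflux pump (1.85 ± 0.25, adjusted p = 0.00024), the prolactin receptor Prlr (1.81 ± 0.65, adjusted p = 0.0465) and Slc7a12 (1.70 ± 0.55, adjusted p = 0.0313). Prlr had 19.1, 35.4 and 149 CPM in CCl4+EtOH libraries, against 21.5, 11.9 and 24.7 CPM in olive oil libraries, so 1 library, CCl4+EtOH replicate 3, stood far above the others. Without it the Prlr log2 fold change was 0.50, and the call was lost in 9 of 14 fits without 1 library, against 4 for Slc7a12. In EtOH none of the 10 male-biased genes was called, with a median of -0.67, and Abcc3 was the called female-biased gene, at 1.28 ± 0.23 (adjusted p = 0.0486), where 0.0807% of all genes were called higher. That call was lost in 10 of 14 fits without 1 library.

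Of 11 genes of steroid receptor action, mostly chaperones and cofactors, 3 fell in CCl4+EtOH relative to olive oil by edgeR's adjusted p, against 16.6% of all genes, the chaperones Fkbp4 (-0.42 ± 0.13) and Hsp90ab1 (-0.41 ± 0.14) and the coactivator Ncoa4 (-0.39 ± 0.08). The Fkbp4 call was lost in 4 and the Hsp90ab1 call in 6 of 14 fits without 1 library. Of 6 tested genes for enzymes that form or remove androgens, 3 fell, against the same 16.6%, with Hsd17b2 at -1.90 ± 0.28 and Hsd17b11 at -1.70 ± 0.28. Srd5a2, a steroid reductase that makes dihydrotestosterone, was at -2.22 ± 0.84 and did not pass (adjusted p = 0.0553).

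In growth hormone signalling, 3 of 8 genes fell in CCl4+EtOH and 1 rose, against 16.6% and 18.9% of all genes. The receptor Ghr fell by 0.94 ± 0.17 on the log2 scale (edgeR adjusted p = 0.0012), Stat5b by 0.35 ± 0.08 (adjusted p = 0.0047) and Stat5a by 0.32 ± 0.11 (adjusted p = 0.0336), while Igf1 rose by 0.93 ± 0.23 (adjusted p = 0.0066). The Stat5a call was lost in 5 of 14 fits without 1 library. In EtOH none of the 8 was called, with Ghr at -0.09 ± 0.16 and Stat5b at -0.14 ± 0.08.

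Around Odc1, 2 of 10 polyamine genes rose in CCl4+EtOH and 2 fell, shares near the 18.9% and 16.6% of all genes. Arg2, the arginase that makes ornithine, rose by 1.77 ± 0.38 (edgeR adjusted p = 0.0036) and Smox, spermine oxidase, rose by 1.76 ± 0.27 (adjusted p = 0.00046). Oaz1, an antizyme that marks ornithine decarboxylase for breakdown, fell by 0.49 ± 0.11 (adjusted p = 0.0035), and Sms, spermine synthase, fell by 0.56 ± 0.20 (adjusted p = 0.0392), a call lost in 7 of 14 fits without 1 library. Around Gusb, 4 of 12 other lysosomal hydrolases rose, among them Ctsd at 0.96 ± 0.17 and Hexa at 0.87 ± 0.13, and 2 fell, among them Glb1, a beta-galactosidase, at -0.47 ± 0.14, against 18.9% and 16.6% of all genes. The Glb1 call was lost without CCl4+EtOH replicate 1 or 2 or olive oil replicate 3. None of either list was called in EtOH.

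Among 13 family relatives of the 8 genes, 9 fell in CCl4+EtOH and none rose, against 16.6% and 18.9% of all genes. Acsm1 fell by 1.65 ± 0.18, Acsm2 by 1.47 ± 0.23, Slco1a4 by 1.68 ± 0.28 and Slco1a6 by 1.52 ± 0.21. Cyp4a10 (-0.35 ± 0.44) and Cyp4a14 (0.82 ± 0.85), fatty acid hydroxylases of the family of Cyp4a12a, did not pass. In EtOH none of the 13 was called. Smallest in p there were Cyp4a32 (1.31 ± 0.35, edgeR adjusted p = 0.146), Acsm1 (-0.56 ± 0.16, adjusted p = 0.163), Cyp4a10 (1.53 ± 0.43, adjusted p = 0.163) and Cyp4a14 (3.20 ± 0.90, adjusted p = 0.172). Cyp4a32, Cyp4a10 and Cyp4a14 thus stood higher in EtOH, where Cyp4a12a was lower. In CCl4+EtOH all 9 genes of tubule injury rose and 13 of 24 proximal tubule markers fell, and the part of tubule injury in the fall of the 8 genes was not tested beyond the scalings above.

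**Figure D4:**
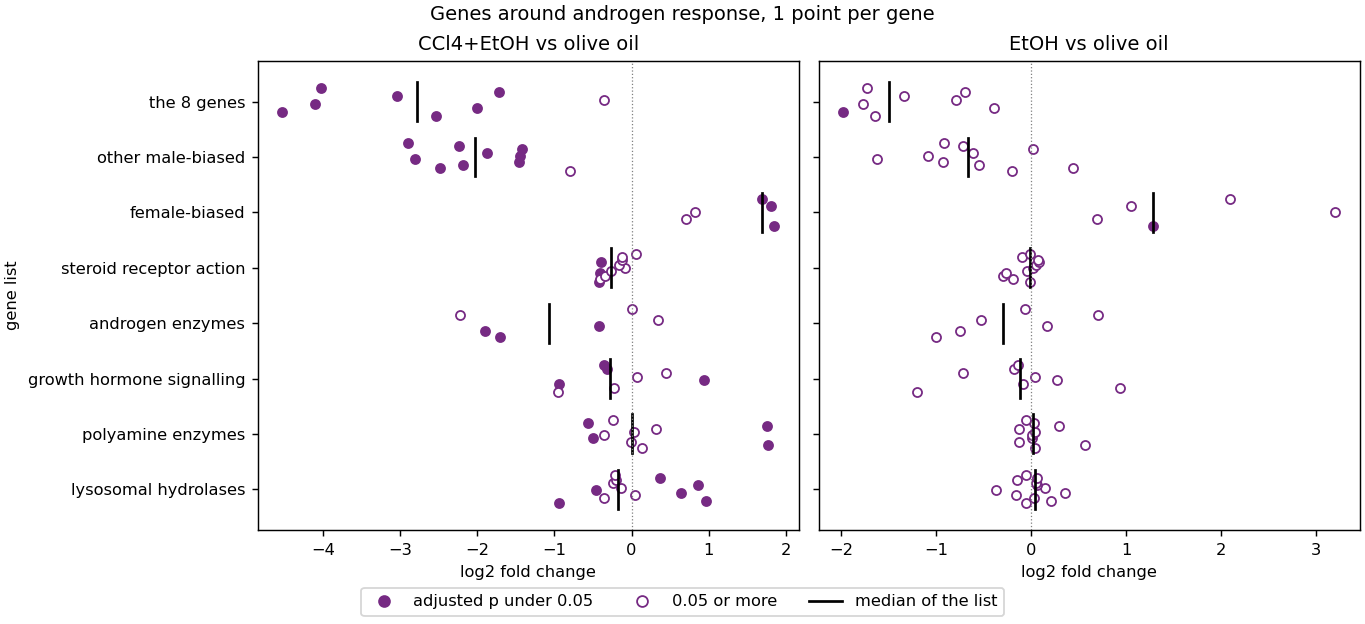
Each point is the log2 fold change of 1 gene in CCl4+EtOH (left) or EtOH (right) relative to olive oil, by gene list, filled where the adjusted p was under 0.05, with the list median as a line. The 8 genes have a median of -2.78 in the left panel and -1.49 in the right, and the female-biased genes lie above 0 in both.

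The genes closest in profile to the 8 were ranked by the root mean square difference of centred log2 CPM from the median profile of the 8, over 14 libraries and 11201 candidates of at least 5 CPM. The nearest were Cyp4a12b (0.37), Fcamr (0.37), Cyp2a4 (0.38), Sec14l3 (0.41) and Slc22a30 (0.43). Fcamr, a receptor for immunoglobulins A and M, averaged 4.19 ± 0.25 CPM in CCl4+EtOH (SD, n = 3), 13.5 ± 2.2 CPM in EtOH (n = 4), 26.6 ± 3.5 CPM in CCl4 (n = 4) and 24.6 ± 9.5 CPM in olive oil (n = 3). Of the 8 themselves, Kap lay closest to the shared profile, at 0.26, and Gusb farthest, at 1.10, with 25.6% of candidates nearer than it. Each of the 8 helped set that profile and the candidates did not, so the 2 kinds of distance are not alike.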

How the data were processed

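The labels hold 15 male mouse kidneys, of which 14 were analysed, all but 1 of the olive oil group. The authors deposited raw counts by gene symbol and did not normalize them. GSNAP and mm9 are named per the submitters' processing notes, while the sources used here do not give the counting program, annotation or strand setting. Of 23893 rows, 27 held a calendar date in place of a symbol and were left out, with 0.168% to 0.209% of counts. No replicates agreed within sampling noise (chi-square per gene of at least 8.59). The largest values were 131 and 108, for CCl4+EtOH replicate 3 against replicates 1 and 2, which stood at 23.4 against each other. Nothing says how the mice were housed or batched, so p-values measure the spread between libraries.

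Counts were tested in R 4.3.3 with edgeR 4.0.16 (filterByExpr, TMM, robust quasi-likelihood F test, Benjamini-Hochberg adjustment, threshold 0.05) in a fit of 4 groups over 16105 genes, and of 5 groups over 16442 genes where the CCl4 schedules were separated. Adjusted p-values come from that test where no other tool is given. SE is the absolute log2 fold change over the square root of F. The interaction is the change with CCl4+EtOH over EtOH minus that with CCl4 over olive oil. The pipeline was checked on simulated counts.

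The 8 genes, the gene lists and the tests were chosen with earlier results of these data known. Named list genes are up to 4 per list with the smallest p in CCl4+EtOH and in EtOH, with Ghr and Stat5b always, and some further genes of a list are given as counts only. Some genes are not reported here. Alternatives were DESeq2 1.42.0, its size factors, upper-quartile factors, other filters, fits restricted to the compared groups, a block for title numbers below or from 270, scaling to tubule genes, an adrenal covariate, and leaving out libraries. Leaving out CCl4+EtOH replicates 1 and 2, and leaving out libraries for the named list genes, were chosen after seeing the data.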

Additional observations from a re-analysis of the deposited data

Results flagged for a closer look

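For 3 of the 8 genes the interaction of CCl4 and EtOH was past the threshold. The additional weeks and the mixed CCl4 schedules enter it too and cannot be told apart from ethanol. The difference of log2 fold changes was -1.58 for Kap, -1.82 for Cyp4a12a and -1.62 for Cyp4b1, at edgeR adjusted p of 0.0259, 0.0360 and 0.0222. Every CCl4+EtOH library lay below every EtOH library for each of these genes. The share of all genes without overlap there is not given, and 16.2% of all genes tested were called lower in that comparison. Without 1 library the Kap difference missed the threshold in 4 of 14 fits, that of Cyp4a12a in 8 and that of Cyp4b1 in 4. The 2 low-tubule CCl4+EtOH libraries and the adrenal transcripts in EtOH replicates 1 to 3 move with the groups that make this difference, and their part in it was not tested apart from the fits without them. No library of a group of 4 stood apart for any of the 8 genes or the 2 tubule genes by the gap to its nearest neighbour. The olive oil and CCl4+EtOH groups, of 3 libraries each, were not tested in this way.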

How the results depend on the processing

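Of 1309 values of the 8 genes under alternatives, 1104 kept their direction and side of the threshold, 152 no longer passed, 36 newly passed and 17 changed sign. Of 106 values of Slc34a1 and Slc22a6 in CCl4+EtOH and EtOH vs olive oil, 87 kept both, 13 no longer passed and 6 changed sign. In CCl4+EtOH vs olive oil the 7 calls among the 8 genes stayed at 6 or 7 whichever library was left out. Causes of the shifts below were not tested. Most counts of the 8 below stand without the share of all genes, and show only how calls moved with the processing.

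DESeq2 called 349 genes in EtOH vs olive oil, against 27 by edgeR, and 1 gene in CCl4 vs olive oil, against 0. Of the 8 genes it called 5 in EtOH vs olive oil, against 1, 3 in EtOH vs CCl4, against 1, and 4 in EtOH vs CCl4 10W, against 2. Without a filter on low counts, 0 of the 8 were called in EtOH vs olive oil and 0 in EtOH vs CCl4. In fits of only the groups compared, fewer samples gave 3276 genes in CCl4+EtOH vs olive oil, against 5706, and 94 in EtOH vs olive oil. Of the 8, these fits called 3 in EtOH vs olive oil, 4 in CCl4 10W vs CCl4 6W, 5 in EtOH vs CCl4 10W and 3 in CCl4+EtOH vs CCl4 10W. With 5 groups, 62 genes and 3 of the 8 were called in EtOH vs olive oil, and 0 of the 8 in EtOH vs CCl4. The block for title numbers gave 3099 genes in CCl4+EtOH vs olive oil, 65 in EtOH vs olive oil, 0 of the 8 in EtOH vs CCl4 10W, and -0.13 for Slc22a6 in EtOH vs olive oil.

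Scaled to Slc34a1, 13746 genes and 4 of the 8, Gusb higher and the rest lower, were called in CCl4+EtOH vs olive oil. In EtOH vs olive oil 119 genes and 3 of the 8 were called, and 1 gene in CCl4 vs olive oil. Of the 8, 2 were called in CCl4+EtOH vs EtOH, Cyp4a12a lower and Gusb higher. The 1 call among the 8 in the interaction was Gusb, at 2.19 ± 0.52. Signs turned for Gusb (1.21) in CCl4+EtOH vs olive oil, for Acsm3 (0.81) and Odc1 (0.28) in CCl4+EtOH vs EtOH, and for Cyp7b1 (0.20), Acsm3 (0.89) and Odc1 (0.81) in the interaction. Scaled to Slc22a6, 14016 genes were called in CCl4+EtOH vs olive oil, 110 genes and 3 of the 8 in EtOH vs olive oil, 1 gene in CCl4 vs olive oil, 2 of the 8 in CCl4+EtOH vs EtOH and 2 in EtOH vs CCl4. Signs turned for Gusb (1.20) and Slc34a1 (0.065) in CCl4+EtOH vs olive oil, for Acsm3 (0.85) and Odc1 (0.41) in CCl4+EtOH vs EtOH, and for Cyp7b1 (0.24), Acsm3 (0.93) and Odc1 (0.93) in the interaction. Scaled to the 24 tubule markers, 12574 genes were called in CCl4+EtOH vs olive oil, and of the 8 there were 0 in EtOH vs olive oil, 3 in CCl4+EtOH vs EtOH, 0 in EtOH vs CCl4 and 0 in EtOH vs CCl4 10W. Signs turned for Gusb (0.70) in CCl4+EtOH vs olive oil, Slc22a6 (-0.025) in EtOH vs olive oil, Acsm3 (0.38) in CCl4+EtOH vs EtOH, and Acsm3 (0.48) and Odc1 (0.55) in the interaction.

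With the adrenal covariate, 0 genes and 0 of the 8 were called in EtOH vs olive oil, and 0 of the 8 in EtOH vs CCl4, the interaction and EtOH vs CCl4 10W. With only EtOH replicate 4 kept in its group, 1 gene and 0 of the 8 were called in EtOH vs olive oil, 3 in CCl4+EtOH vs EtOH, and 0 in EtOH vs CCl4, the interaction and EtOH vs CCl4 10W. With only CCl4+EtOH replicate 3 kept, which was chosen after seeing the data, 865 genes were called in CCl4+EtOH vs olive oil, and of the 8 there were 3 in CCl4+EtOH vs EtOH and 0 in the interaction. In these fits the lone library was assumed to vary like the other groups.

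With each library left out in turn, EtOH vs olive oil ranged from 3 to 154 genes and from 0 to 4 of the 8, EtOH vs CCl4 from 0 to 1, the interaction from 0 to 4 and EtOH vs CCl4 10W from 0 to 4. In EtOH vs olive oil, Odc1 ranged from -0.95 to 0.0046 and Slc22a6 from -0.13 to 0.13. No paired analysis was possible because the labels give the groups no shared replicate numbers. With 2 to 4 libraries a group, smaller differences among the 8 genes were not detectable.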
